A study of Oryza sativa with 9 samples.

Results

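Transcript levels of 8 heat shock protein genes were followed in the RNA-seq data of rice young panicles. The genes were chosen by identifier: 6 genes for small heat shock proteins (Os01g0136100, Os01g0136200, Os01g0184100, Os03g0245800, Os03g0266900 and Os03g0267000), the gene for HSP101 (Os05g0519700) and a gene for HSP90 (Os04g0107900). The choice was made with earlier results of these data known. All 8 were among the 37863 genes of the expression table and among the 21780 that were tested. The names come with the list of identifiers, and no annotation used here pairs the identifiers with names, positions or sequences.

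Heat shock proteins are molecular chaperones, which bind other proteins while these fold, refold or are kept from clumping. Small heat shock proteins hold unfolding proteins in a form that can still be rescued, HSP101 is a ring-shaped ATPase that pulls proteins out of aggregates and is needed for heat tolerance in *Arabidopsis* and maize, and HSP90 helps signalling proteins such as kinases reach their active form. In plants the genes of the heat-inducible members are switched on together by heat shock transcription factors when a tissue is warmed or otherwise stressed, and some members are also made during flower and seed development without any stress.

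The 9 libraries came from 3 genotypes of the *japonica* rice Zhonghua11, with 3 libraries each. ZH11-OE1 overexpresses *OsGSE9* from the ubiquitin promoter, ZH11-KO1 carries a CRISPR/Cas9 disruption of *OsGSE9*, with Cas9 also under a ubiquitin promoter, and ZH11 is the wild type that serves as reference for both. The panicles were taken before heading by the sample labels and before anthesis by the methods, no treatment is named, and temperature and time of day at harvest are not given in the sources used here. Each transgenic genotype is 1 line, so what belongs to the line cannot be told apart from what belongs to the gene, and the transcript of *OsGSE9* itself was not analysed here. The study describes 3 independent samples per genotype, but does not say whether a sample is 1 plant or a pool, so p-values measure the spread between these samples. Values are FPKM, a read count scaled by gene length and library size, which allows levels to be set side by side between genes. The FPKM of a library summed to 635209 to 701261, the sequencing depth estimated from low values differed by 1.15-fold at most, and log2 levels of libraries of the same genotype correlated at 0.980 to 0.988 over the tested genes. All 12 listed floral MADS-box genes, which mark panicle and floral tissue, were above 0 in every library, with summed levels of 1633 to 1910 FPKM in ZH11-OE1, 1675 to 1808 FPKM in ZH11-KO1 and 1735 to 1935 FPKM in ZH11.

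Of the 8 genes, 7 were abundant and differed widely from library to library, and Os01g0184100 was low in all 9. The adjacent identifiers Os03g0266900 and Os03g0267000 had the highest levels. Os03g0266900 stood at 2872, 1358 and 1506 FPKM in the ZH11-OE1 libraries 1 to 3, at 498, 884 and 1885 FPKM in those of ZH11-KO1, and at 395, 259.9 and 1171 FPKM in those of ZH11. Os03g0267000 had 2503, 1166 and 1279 FPKM in ZH11-OE1, against 325, 635 and 1425 FPKM in ZH11-KO1 and 242, 142 and 854 FPKM in ZH11. Both genes were highest in ZH11-OE1 library 1, next in ZH11-KO1 library 3, and lowest in ZH11 library 2. The ZH11-OE1 libraries lay above all those of ZH11 for both, while ZH11-KO1 overlapped with each of the other genotypes.

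The other pair of adjacent identifiers, Os01g0136100 and Os01g0136200, was lower in level and wider in range. Os01g0136100 had 589, 146 and 205 FPKM in ZH11-OE1, against 19.6, 51.5 and 232 FPKM in ZH11-KO1 and 10.6, 7.14 and 77.9 FPKM in ZH11. Os01g0136200 measured 597, 170.0 and 223 FPKM in ZH11-OE1, 47.6, 92.5 and 329.8 FPKM in ZH11-KO1, and 49.2, 28.4 and 160.4 FPKM in ZH11. The highest library exceeded the lowest by 82.4-fold for Os01g0136100 and by 21.0-fold for Os01g0136200, and again ZH11-OE1 did not overlap with ZH11. Os03g0245800, the fifth small heat shock protein gene of this kind, had 430.0, 126 and 133 FPKM in ZH11-OE1, 18.5, 46.9 and 167.7 FPKM in ZH11-KO1, and 16.4, 8.49 and 64.9 FPKM in ZH11. Its extremes, 50.6-fold apart, fell in the same libraries as those of the genes above.

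The larger chaperones had their extremes in the same libraries. HSP101, the disaggregase, had 977, 472 and 433 FPKM in ZH11-OE1, against 145, 283 and 621 FPKM in ZH11-KO1 and 78.1, 51.6 and 293 FPKM in ZH11. HSP90 had 374, 143 and 153 FPKM in ZH11-OE1, 25.4, 53.6 and 207 FPKM in ZH11-KO1, and 22.5, 13.3 and 89.0 FPKM in ZH11. Every ZH11-OE1 library was above every ZH11 library for each of them, and ZH11-KO1 library 3 was above ZH11-OE1 libraries 2 and 3.

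Os01g0184100 behaved otherwise. It had 3.32, 1.37 and 2.72 FPKM in ZH11-OE1, 2.24, 1.92 and 2.44 FPKM in ZH11-KO1, and 1.95, 2.38 and 2.68 FPKM in ZH11. Its highest and lowest libraries were both of ZH11-OE1 and were 2.42-fold apart, and the 3 genotypes overlapped. The measured levels therefore set it apart from the other 5 genes listed as small heat shock proteins.

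**Figure D1:**
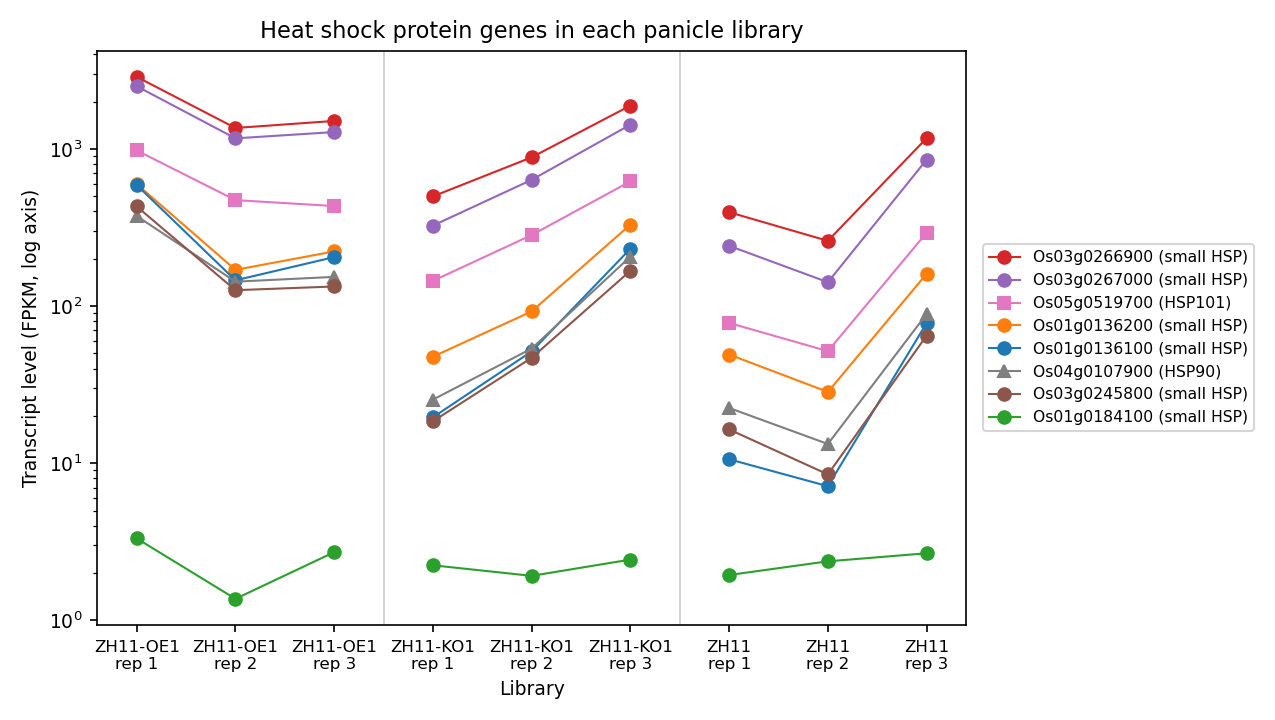
Transcript level of each of the 8 genes (FPKM, log axis) in each of the 9 libraries, with ZH11-OE1 left, ZH11-KO1 in the middle and ZH11 right; symbols mark the kind of protein, and lines join 1 gene's values within a genotype only to make them easy to follow, since libraries of a genotype have no order. The curves of 7 genes run nearly in parallel, from 7.14 to 2872 FPKM, and Os01g0184100 stays between 1.37 and 3.32 FPKM.

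The order of the 9 libraries was nearly the same for the 7 abundant genes. ZH11-OE1 library 1 was the highest and ZH11 library 2 the lowest for 7 of the 7, ZH11-KO1 library 3 ranked 2 and ZH11 library 3 ranked 5 for each of them, and only the neighbours ZH11-OE1 libraries 2 and 3, and ZH11-KO1 library 1 and ZH11 library 1, changed places. Added up, the 8 genes made 8345, 3583 and 3935 FPKM in ZH11-OE1, 1081, 2048 and 4869.6 FPKM in ZH11-KO1, and 816, 513 and 2713 FPKM in ZH11. As a share of all FPKM of a library this was 0.564 to 1.28 percent in ZH11-OE1, 0.154 to 0.717 percent in ZH11-KO1 and 0.0769 to 0.416 percent in ZH11. The 21 pairs among the 7 genes had Pearson correlations of 0.964 to 0.998 over the 9 libraries on the log2(FPKM + 1) scale, and of 0.972 to 0.999 after the mean of each genotype was taken away. Os01g0184100 correlated with the 7 at 0.277 to 0.425. All genes of a library share its RNA, its depth and its handling, so these correlations are given as a description.

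Libraries of 1 genotype differed by several fold. Os01g0136100 ranged over 4.04-fold within ZH11-OE1, 11.8-fold within ZH11-KO1 and 10.9-fold within ZH11, and for Os03g0266900 these ranges were 2.11-fold, 3.78-fold and 4.50-fold. The SD within genotypes was 0.916 to 1.56 on the log2(FPKM + 1) scale for the 7 genes and 0.285 for Os01g0184100. The added 1 narrows the spread of a gene as low as Os01g0184100, so its SD is not on a par with theirs. The median over the 8 genes was 1.13, against 0.160 over all genes tested and 0.133 over the 1072 with a mean of at least 100 FPKM. Of the tested genes, 99.8 percent had a smaller SD than Os03g0266900, the least variable of the 7, and 86.1 percent had a smaller SD than Os01g0184100.

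The comparison of ZH11-OE1 with ZH11 addresses whether transcripts change when *OsGSE9* is overexpressed. Of the 8 heat shock protein genes, 5 were higher in ZH11-OE1 and 0 lower at an adjusted p under 0.05 in limma, a linear model fitted to each gene with a spread shared in part between genes, against 3.76 percent of the tested genes called higher and 10 percent called lower. The 5 were 3 small heat shock protein genes, HSP101 and HSP90. Os01g0136100 averaged 313 ± 240.5 FPKM in ZH11-OE1 and 31.9 ± 39.9 FPKM in ZH11 (SD, n = 3 each), which is 3.74 higher on the log2 scale (SE 0.97, limma adjusted p = 0.0305). By the size of this rise it ranked 9 among all tested genes. Os03g0245800 averaged 229.8 ± 173 FPKM in ZH11-OE1 and 29.9 ± 30.5 FPKM in ZH11, a rise of 3.13 on the log2 scale (SE 0.84, adjusted p = 0.0340). For Os03g0267000 the averages were 1649 ± 741 FPKM in ZH11-OE1 and 412 ± 386 FPKM in ZH11, and the log2 rise was 2.33 (SE 0.65, adjusted p = 0.0398).

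Among the larger chaperones, HSP90 averaged 223 ± 131 FPKM in ZH11-OE1 and 41.6 ± 41.3 FPKM in ZH11 (SD, n = 3 each), a log2 rise of 2.70 (SE 0.78, limma adjusted p = 0.0448). HSP101 averaged 627 ± 304 FPKM in ZH11-OE1 and 141 ± 132 FPKM in ZH11, a log2 rise of 2.45 (SE 0.64, adjusted p = 0.0317). The remaining 3 genes did not pass the test. Os01g0136200 had a log2 fold change of 2.19 (95 percent confidence interval 0.52 to 3.87, adjusted p = 0.0780), and Os03g0266900 one of 1.87 (0.60 to 3.13, adjusted p = 0.0542). For Os01g0184100 it was 0.02 (-0.44 to 0.48, adjusted p = 0.957). At an unadjusted p under 0.05, 7 of the 8 genes were higher in ZH11-OE1 and 0 lower, against 10.6 percent of the tested genes higher and 19.9 percent lower.

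All 3 ZH11-OE1 libraries were above all 3 ZH11 libraries for 7 of the 8 genes, as they were for 12.6 percent of the tested genes (two-sided exact permutation test of a single gene, p = 0.1, the smallest that 3 libraries against 3 can give). The median log2 fold change was 2.39 over the 8 genes and -0.04 over all genes tested. The 7 genes rank the libraries almost alike, so they are not 7 separate observations. Because the 8 genes were chosen with earlier results of these data known, the shares over all tested genes are a description. They do not test the 8 as a set. The calls lie close to the threshold: none of the 8 genes was called without ZH11-OE1 library 1, 2 or 3, without ZH11 library 1 or 2, or with no filter on low values, 3 were called with a spread that had no trend, 2 were called without ZH11-KO1 library 2, and 7 without ZH11-KO1 library 3 or ZH11 library 3. Over all genes, 820 were called higher in the fit of all libraries. The number was 510, 251 and 360 without ZH11-OE1 library 1, 2 and 3, and 244, 842 and 862 without ZH11 library 1, 2 and 3. It was 570 and 787 without ZH11-KO1 library 2 and 3, 696 with no trend, and 568 of 32208 with no filter. The log2 fold changes of the 5 genes, 2.33 to 3.74 in the fit of all libraries, were 1.98 to 3.15 without ZH11-OE1 library 1, 2.53 to 4.16 without library 2 and 2.47 to 3.91 without library 3, and 2.15 to 3.36 without ZH11 library 1, 1.77 to 3.11 without library 2 and 3.06 to 4.75 without library 3. In bulk tissue a change in the number of cells that make a transcript cannot be told apart from a change in the amount per cell.

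The comparison of ZH11-KO1 with ZH11 asks what changes when *OsGSE9* is disrupted, and uses the same ZH11 libraries. None of the 8 genes passed the test, against 5.0 percent of the tested genes called higher and 3.59 percent called lower in limma. At an unadjusted p under 0.05, 1 of the 8, HSP101, was higher in ZH11-KO1 and 0 lower, against 13.2 percent of the tested genes higher and 12.4 percent lower. HSP101 averaged 349.6 ± 245 FPKM in ZH11-KO1 and 141 ± 132 FPKM in ZH11 (SD, n = 3 each), a log2 difference of 1.46 (95 percent confidence interval 0.05 to 2.88, adjusted p = 0.182). For Os01g0136100 the averages were 101 ± 114 FPKM in ZH11-KO1 and 31.9 ± 39.9 FPKM in ZH11, and the log2 fold change was 1.69 (-0.44 to 3.83, adjusted p = 0.303). The values of the other abundant genes were 0.89 for Os01g0136200, 0.93 for Os03g0266900, 1.11 for Os03g0267000, 1.28 for Os03g0245800 and 1.10 for HSP90, with adjusted p between 0.315 and 0.503. Os01g0184100 had a log2 fold change of -0.06 (-0.51 to 0.40, adjusted p = 0.897).

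For none of the 8 genes were all ZH11-KO1 libraries above all ZH11 libraries, which was so for 14.2 percent of the tested genes. The median log2 fold change was 1.11 over the 8 genes and -0.02 over all genes. The upper ends of the intervals of the 7 abundant genes lay between 2.19 and 3.83, and the interval of each except HSP101 included 0. Single libraries set the size of these differences: the log2 fold changes of the 7 genes, 0.89 to 1.69 in the fit of all libraries, were 0.12 to 0.93 without ZH11-KO1 library 3, 1.38 to 2.50 without ZH11-KO1 library 1, 0.35 to 1.06 without ZH11 library 2 and 1.55 to 2.70 without ZH11 library 3. Over all genes, deviations of same-numbered libraries of these genotypes correlated at 0.234 to 0.316. A differently numbered pair, ZH11-OE1 library 3 and ZH11 library 2, reached 0.274, so the pairing is uncertain. Set against the ZH11 library of the same number, the 7 abundant genes were at 0.969 to 1.85 times the ZH11 level in ZH11-KO1 library 1, at 3.25 to 7.20 times in library 2 and at 1.61 to 2.98 times in library 3. When a fit of these 6 libraries took the replicate number as a block, a setting added after seeing the data, 2 genes were called higher in ZH11-KO1: Os01g0136100 (adjusted p = 0.0209 from limma) and HSP101 (adjusted p = 0.0234). That fit called 7.89 percent of the tested genes higher. With the same block in the fit of all 9 libraries none was called.

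Between ZH11-OE1 and ZH11-KO1, none of the 8 genes passed the test, against 8.09 percent of the tested genes called higher in ZH11-OE1 and 15.8 percent called lower in limma. None had an unadjusted p under 0.05, against 15.5 percent of the tested genes higher and 23.3 percent lower at that level. The largest difference was that of Os01g0136100, which averaged 313 ± 240.5 FPKM in ZH11-OE1 and 101 ± 114 FPKM in ZH11-KO1 (SD, n = 3 each), a log2 difference of 2.05 (95 percent confidence interval -0.09 to 4.18, adjusted p = 0.143). The smallest among the abundant genes was that of Os03g0266900, at 0.94 (-0.33 to 2.21, adjusted p = 0.249). No gene had all ZH11-OE1 libraries above all ZH11-KO1 libraries, as 18.8 percent of the tested genes did, and ZH11-KO1 library 3 lay above ZH11-OE1 libraries 2 and 3 for each of the 7. The median log2 fold change was 1.26 over the 8 genes and -0.03 over all genes. Without ZH11-KO1 library 3, 3 of the 8 were called higher in ZH11-OE1, as were 1581 of the 21807 genes tested in that fit. There the log2 fold changes of the 7 abundant genes, 0.94 to 2.05 in the fit of all libraries, were 1.44 to 2.99. They were 0.48 to 1.24 without ZH11-KO1 library 1 and 0.60 to 1.46 without ZH11-OE1 library 1. By their averages the 7 abundant genes stood in the order ZH11-OE1, ZH11-KO1 and ZH11, in which neighbouring genotypes did not differ by the test and the ends did so for 5 genes of the 7.

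**Figure D2:**
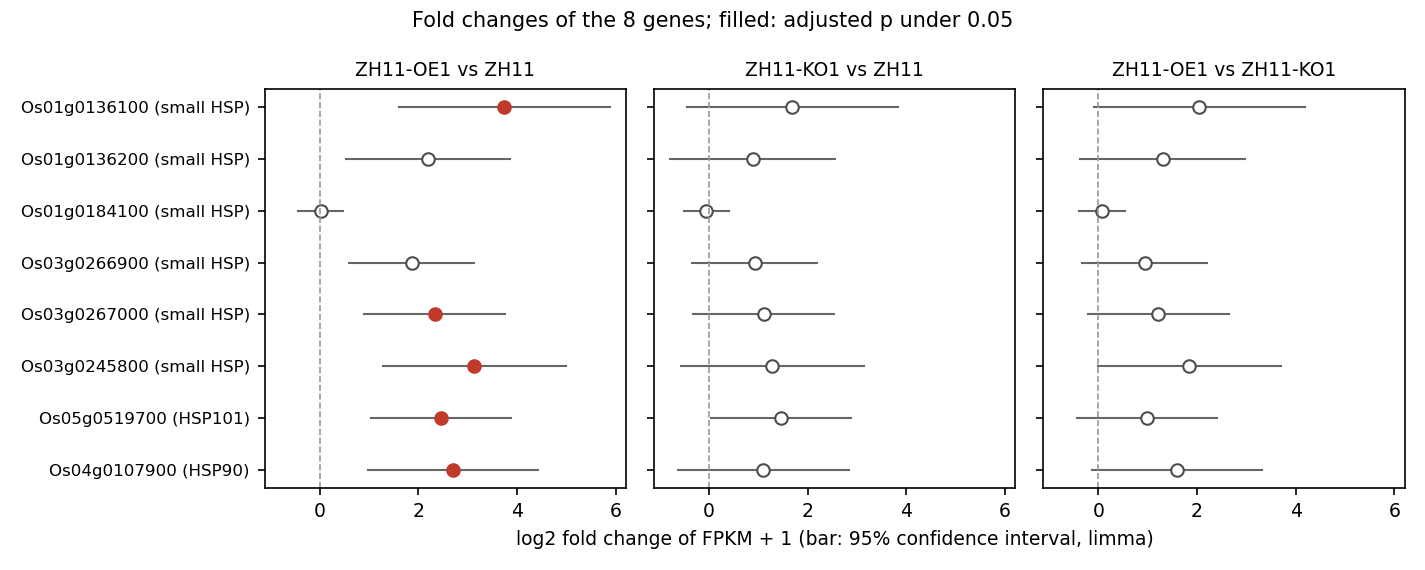
Log2 fold change of FPKM + 1 of each gene in ZH11-OE1 against ZH11, ZH11-KO1 against ZH11 and ZH11-OE1 against ZH11-KO1; points are estimates of the limma fit of 9 libraries, bars their 95 percent confidence intervals, and filled points pass an adjusted p of 0.05. The 5 filled points are all in the comparison of ZH11-OE1 with ZH11, and Os01g0184100 lies near 0 in each panel.

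The genes with adjacent identifiers did not change by the same factor. The level of Os01g0136100 relative to Os01g0136200 was 0.986, 0.858 and 0.920 in ZH11-OE1, 0.412, 0.557 and 0.703 in ZH11-KO1, and 0.216, 0.251 and 0.486 in ZH11. Os03g0266900 relative to Os03g0267000 stood at 1.15, 1.16 and 1.18 in ZH11-OE1, 1.53, 1.39 and 1.32 in ZH11-KO1, and 1.64, 1.83 and 1.37 in ZH11. In each pair the genes were closest to equal in the 3 ZH11-OE1 libraries, which did not overlap with the others, and furthest apart in ZH11 library 1 for the first pair and ZH11 library 2 for the second. Within ZH11-KO1, and between the ends of ZH11, the more abundant library had the more equal levels. ZH11-KO1 library 3 had a higher summed level than ZH11-OE1 libraries 2 and 3 but a less equal ratio, so the ratio did not follow the level alone. The counting of reads that match more than 1 gene is not described in the sources used here, so the split between near-identical copies is uncertain.

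**Figure D3:**
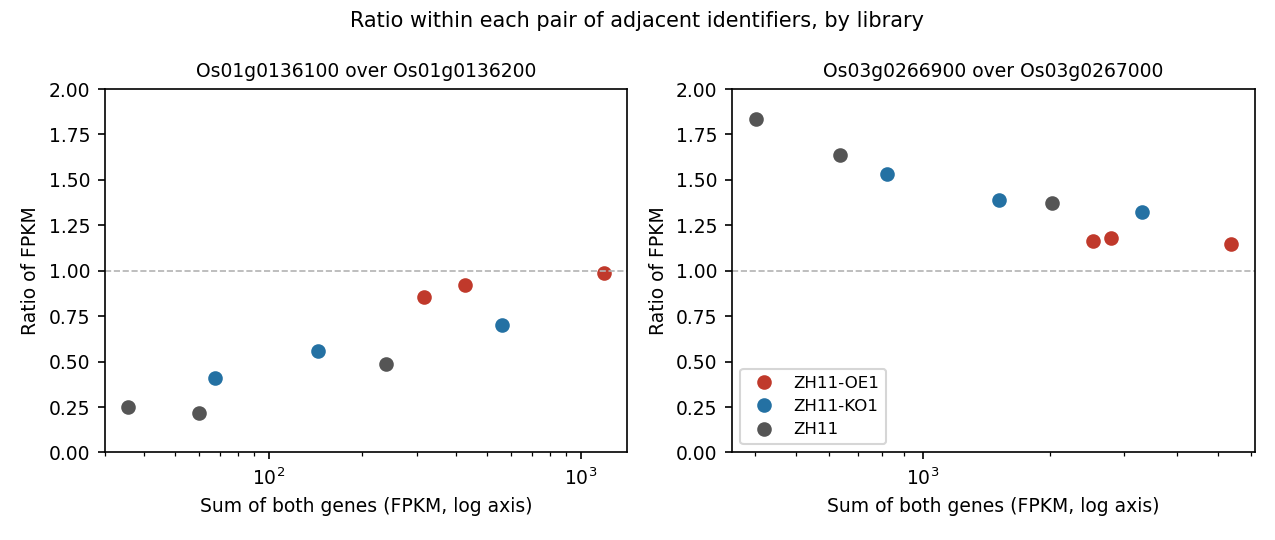
Ratio of FPKM within the pair Os01g0136100 and Os01g0136200 (left) and the pair Os03g0266900 and Os03g0267000 (right) against the summed FPKM of the pair (log axis); each point is 1 library, coloured by genotype, and the dashed line marks equal levels. The 3 ZH11-OE1 points lie nearest to 1, and ZH11-OE1 library 1, with the highest sums, is at 0.986 on the left and 1.15 on the right.

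The pattern did not extend to all rows beside these pairs. Of the 12 table rows in the chosen stretch of identifiers around Os01g0136100 and Os01g0136200, 2 are these genes, 3 are on the list of further small heat shock protein genes, and the other 7 held 5 tested genes, whose correlation with the mean profile of the 8 genes over the 9 libraries was -0.61 to 0.81. In the stretch around Os03g0266900 and Os03g0267000, with 13 rows, 7 tested genes outside the lists had correlations of -0.73 to 0.40. The listed small heat shock protein genes beside the pairs followed the profile in part. In the first stretch 1 of the 3 tested had a correlation above 0.9. In the second stretch 2 were listed, and the 1 tested, Os03g0266300, was above 0.9.

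Over the whole table, 161 of the 21772 other tested genes (0.739 percent) had a correlation above 0.9 with the mean profile of the 8 genes, each scaled over the 9 libraries. The profile most like it was that of Os03g0266300, from the list of further small heat shock protein genes, at 0.997. It had 1820, 847 and 972 FPKM in ZH11-OE1, 453, 625 and 1149 FPKM in ZH11-KO1, and 406, 337 and 834 FPKM in ZH11. Next came Os06g0565200, from the list of heat shock factors, at 0.996, with 50.6, 7.29 and 13.4 FPKM in ZH11-OE1, 1.57, 3.72 and 21.0 FPKM in ZH11-KO1, and 0.197, 0.0664 and 8.73 FPKM in ZH11. Both had their highest level in ZH11-OE1 library 1 and their lowest in ZH11 library 2, as the 7 abundant genes did. The third, at 0.989, was Os11g0244200 from the list of further small heat shock protein genes. It was also highest in ZH11-OE1 library 1, at 88.9 FPKM, but lowest in ZH11 library 1, at 0 FPKM, against 0.178 FPKM in ZH11 library 2.

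Other chaperone genes were followed as lists. Of 13 further small heat shock protein genes 11 were tested, and 6 of these had a correlation above 0.9 with the profile. So did both further genes of the HSP100 family, to which HSP101 belongs, 4 of 10 genes for HSP70, which folds new and damaged proteins with the help of ATP, 2 of 6 further HSP90 genes, and 4 of the 21 tested heat shock factors. In all these were 18 of 50 tested genes, or 36 percent, against the 0.739 percent over the 21772 genes. The lists were chosen with earlier results of these data known, and genes of a library share its RNA and handling. The 18 are therefore not separate observations, and the shares are given as a description. None of the 9 anther, 4 green tissue or 12 floral MADS-box markers reached this correlation. At a share of 0.739 percent over the table, lists of this size are too short to show a lack.

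In ZH11-OE1 against ZH11, 4 of the 11 further small heat shock protein genes were called higher and 2 lower in limma, against 3.76 and 10 percent of all tested genes, with a median log2 fold change of 1.25. The HSP100 list had 1 of 2 genes higher and a median of 1.82, the HSP70 list 1 of 10 and 0.26, the HSP90 list 1 of 6 and 0.47, and the heat shock factors 5 of 21 and 0.27, with 0 lower in each of these lists. At an unadjusted p under 0.05 there, 10.6 percent of all tested genes were higher and 19.9 percent lower. The small heat shock protein list had 9 higher and 2 lower of 11 at that level, and the HSP90 list 6 higher of 6. Both HSP100 genes were higher, as were 4 of 10 HSP70 genes and 9 of 21 heat shock factors, with 1 lower in each of the last 2 lists. In ZH11-KO1 against ZH11 no further small heat shock protein, HSP100 or HSP90 gene was called, and 1 HSP70 gene was higher, as was 1 heat shock factor while another was lower, against 5.0 percent of all tested genes higher and 3.59 percent lower. At an unadjusted p under 0.05 in that comparison, where 13.2 percent of all tested genes were higher and 12.4 percent lower, the small heat shock protein list had 5 genes higher and 1 lower of 11 with a median log2 fold change of 0.67, the HSP90 list 0 higher and 1 lower of 6 with a median of 0.03, and the HSP100 list 0 of 2 with a median of 0.41. In ZH11-OE1 against ZH11-KO1, 3 of 6 further HSP90 genes and 4 of 21 heat shock factors were higher and 1 heat shock factor lower, 1 further small heat shock protein gene was higher and 1 lower, and no HSP70 or HSP100 gene was called, against 8.09 percent of all tested genes higher and 15.8 percent lower. At an unadjusted p under 0.05, where 15.5 percent of all tested genes were higher and 23.3 percent lower, 2 of 10 HSP70 genes were lower and 0 higher, and both HSP100 genes were higher.

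**Figure D4:**
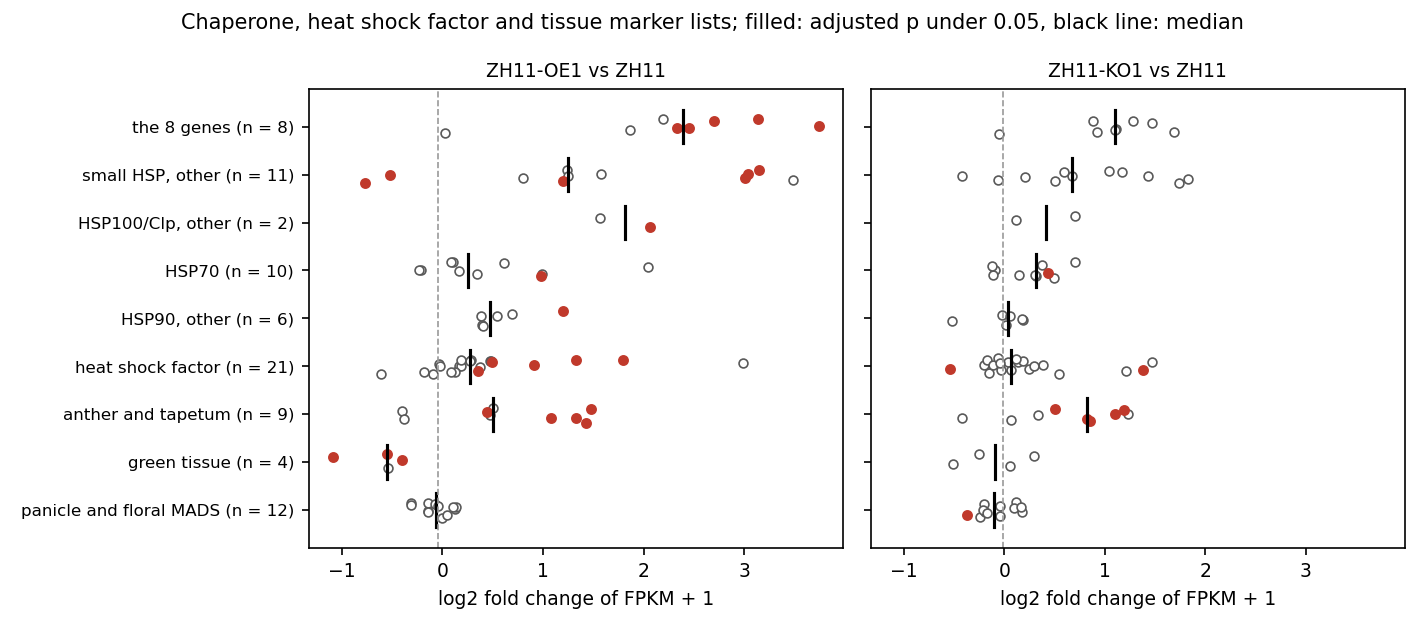
Log2 fold change of FPKM + 1 in ZH11-OE1 against ZH11 (left) and ZH11-KO1 against ZH11 (right) for the tested genes of each list; each point is a gene, filled where its adjusted p in limma was under 0.05, and black lines mark list medians. The medians in ZH11-OE1 against ZH11 were 2.39 for the 8 genes and 1.25 for the further small heat shock protein genes, against -0.06 for the floral MADS-box genes.

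Markers of other tissues moved as well. In ZH11-OE1 against ZH11, 5 of 9 anther and tapetum markers were called higher and 0 lower, against 3.76 and 10 percent of all tested genes, with a median log2 fold change of 0.50. In ZH11-KO1 against ZH11 these counts were 5 and 0, against 5.0 and 3.59 percent, with a median of 0.83, and in ZH11-OE1 against ZH11-KO1 they were 0 and 0 (0 at an unadjusted p under 0.05). Their summed level, 2633 to 3248 FPKM in ZH11-OE1, 3026 to 4428 FPKM in ZH11-KO1 and 2689 to 4169 FPKM in ZH11, overlapped between genotypes. The highest level of a single marker was 2708 FPKM in ZH11-OE1, 3958 FPKM in ZH11-KO1 and 3892 FPKM in ZH11. The sums therefore say little about the less abundant markers. Of the 4 green tissue markers, 3 were called lower in ZH11-OE1 than in ZH11, against 10 percent of all tested genes. In ZH11-OE1 against ZH11-KO1, 3 were called lower, against 15.8 percent. In ZH11-KO1 against ZH11, 0 were called, against 5.0 percent higher and 3.59 percent lower. At an unadjusted p under 0.05, 1 was lower there, against 12.4 percent. Their summed levels were 1258 to 1448 FPKM in ZH11-OE1, 1648 to 1978 FPKM in ZH11-KO1 and 1938 to 2577 FPKM in ZH11. Of the 12 floral MADS-box genes, 0 were called in ZH11-OE1 against ZH11. At an unadjusted p under 0.05, 1 was lower there, against 19.9 percent of all tested genes. In ZH11-KO1 against ZH11, 1 was called lower, against 3.59 percent. At an unadjusted p under 0.05, 4 were lower and 0 higher there, against 12.4 and 13.2 percent of all tested genes. In ZH11-OE1 against ZH11-KO1, 2 were called higher and 2 lower, against 8.09 and 15.8 percent. At an unadjusted p under 0.05, 4 were higher and 3 lower there, against 15.5 and 23.3 percent. No marker of any of the 3 tissue lists was at 0. The mean log2 level of a list correlated with the heat shock protein profile over the 9 libraries at 0.22 for the anther markers, -0.73 for the green tissue markers and -0.56 for the floral MADS-box genes. The part of tissue makeup in the differences of the heat shock protein genes was not tested.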

How the data were processed

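RNA-seq was done on young panicles of ZH11-OE1, ZH11-KO1 and ZH11 (named ZH11-OE-1, ZH11-Cas9-1 and ZH11 in the study), with 3 libraries each. After filtering, by the labels and the methods of the study, the authors mapped reads to IRGSP-1.0 with HISAT2, counted them per gene with featureCounts, and deposited FPKM. The formula behind the FPKM and the use of strand in counting are not given in either. The authors' DESeq2 step needs counts and was not run here. Read totals were not used here, and relative depth was read from the steps between values of low genes, from 0.931 in ZH11-KO1 replicate 3 to 1.07 in ZH11-OE1 replicate 3, relative to ZH11 replicate 1. All sample columns were used.

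The log2 of FPKM + 1 was fitted with limma (version 3.58.1, R 4.3.3) to the 9 libraries at once, with a mean per genotype and a spread that may vary with expression, and tests were two-sided. Genes averaging 1 FPKM or more were kept, and p-values were adjusted by Benjamini-Hochberg over all 21780 of them. A fold change on this scale understates that of low genes. Levels were joined and plotted with Python 3.11.15, numpy 2.4.6, pandas 2.3.3 and matplotlib 3.10.9. The fit was first tested on simulated data.

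The 8 genes and the lists were chosen with earlier results of these data known. List identifiers were written from background knowledge, without a table to name them, so the lists are given as counts. The genes to be named were the 8, up to 3 called genes of each list and the 3 genes most like the mean profile. Of genes outside the 8, only the closest 3 are printed. Promoter and protein sequences were planned but not used here. To see whether replicate numbers pair the libraries, deviations from the genotype means were correlated across genes. Same-numbered libraries had r of 0.278, 0.234 and 0.316 for ZH11-KO1 and ZH11, taken as a pairing, -0.279 to 0.0234 for ZH11-OE1 and ZH11, and -0.0649 to 0.0147 for ZH11-OE1 and ZH11-KO1, for which none was taken. Differently numbered libraries had r of -0.262 to -0.0218 for ZH11-KO1 and ZH11. Deviations cancel out within a genotype, so positive values for same-numbered libraries push those of the others below zero. These negative values are therefore no separate sign of a pairing. For ZH11-OE1 and ZH11, differently numbered libraries reached up to 0.274. The pairing is therefore uncertain. Alternatives tried were rescaling by median-of-ratios factors, quantile normalization, a pseudocount of 0.1, a filter at 5 FPKM or none, a spread without trend, fits of 2 groups, a replicate block, and leaving out each library in turn.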

Additional observations from a re-analysis of the deposited data

How the results depend on the processing

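The direction of the fold changes that passed the test was kept under each alternative run. In ZH11-OE1 against ZH11, 5 of the 8 heat shock protein genes were called higher, against 0 with no filter on low values, where more genes share the adjustment, 3 with no trend of the spread, and 2 with the replicate block in a fit of only these groups, a setting added after seeing the data. The count was 5 with a pseudocount of 0.1, a minimum mean of 5 FPKM or median-of-ratios rescaling, and 6 with quantile normalization, with only the 2 groups compared or with the replicate block in all 9 libraries. It ran from 0 to 7 with 1 library left out. In ZH11-KO1 against ZH11 the count was 0 under each alternative, libraries left out included (0 to 0), except for 2 with the replicate block in a fit of only these groups, while the log2 fold change ran from 0.75 to 2.70 for Os01g0136100 and from 0.29 to 1.87 for HSP90. In ZH11-OE1 against ZH11-KO1 it was 0, and 0 to 3 with 1 library left out, the 3 being without ZH11-KO1 replicate 3. The replicate block changed no other count. Over all genes, 820 were higher and 2179 lower in ZH11-OE1 against ZH11, compared with 1222 and 1765 after median-of-ratios rescaling and 1157 and 1713 after quantile normalization. In ZH11-OE1 against ZH11-KO1 these numbers were 1761 and 3437, 2490 and 3154, and 2966 and 2812. For ZH11-OE1 against ZH11, genes called higher numbered 568 of 32208 with no filter, 696 with no trend and 804 with the pseudocount of 0.1. They numbered 675 of 15258 with the filter at 5 FPKM and 631 with only the 2 groups compared. With the replicate block they numbered 965 in all libraries and 285 in only these groups, and with 1 library left out 244 to 862. The spread within genotypes was up to 1.56 on the log2 scale, and the 95 percent confidence intervals of the fold changes in ZH11-KO1 against ZH11 reached up to 3.83. The cause of the spread within genotypes was not tested.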
